A study of Mus musculus with 4 samples.

Results

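Mouse embryonic fibroblasts that received GATA3 together with SOX2, KLF4 and c-MYC (G3SKM) were compared with fibroblasts that received SOX2, KLF4 and c-MYC without it (SKM). All genes at 1 RPKM or more in either group were taken, where RPKM is the reads per kilobase of gene, scaled to the depth of the library. This gave 10214 genes of the 26364 listed for the pair and of the 27597 listed anywhere in the series. Per the labels, the cells of all 4 groups came from the skin of embryos of strain OGXICR at day 13.5, with the epidermis taken off, and were infected with doxycycline-inducible lentivirus. The other groups, which serve here as reference levels, carried an empty vector or OCT4 with the same factors (OSKM). When the cells were harvested after infection, and how many took up every virus, the sources used here do not say. The authors deposited a single value per gene and group, made from 2 replicates, so differences cannot be weighed against replicate spread and none was tested. From the steps between low values, the G3SKM library held 102 M reads and the SKM library 54.0 M, beside 74.7 M for OSKM and 111 M for empty vector.

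GATA3 is a zinc finger transcription factor that binds GATA motifs and directs T helper cells, luminal mammary cells, hair follicles and trophoblast. SOX2, KLF4 and c-MYC are reprogramming factors that, together with OCT4, return fibroblasts to pluripotency. The title and design text of the series describe a search for lineage specifiers that act in this process. The question put to the pair of groups was which transcripts differ when a lineage specifier is added to the other 3 factors.

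The log2 ratio used throughout is that of G3SKM over SKM after 1 RPKM was added to both. A ratio of 1 or more in size is the rule for calling a gene higher or lower. Folds are given without the added RPKM, each with its 95% Clopper-Pearson interval in brackets, which comes from the recovered reads and covers counting error alone. Where values were not whole multiples of a read, as for Sox2, Sox3 and Dlx3, reads and intervals are approximate. Just inside the filter was Tom1l1, at 0.784 RPKM in SKM and 1.001 in G3SKM, and just outside it Npff, under 1 RPKM in both. Just past the rule were Usmg5 (1.0040) and Foxc2 (-1.0010), and just short of it Taf1d (0.9973) and Rps26 (-0.9988).

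By this rule 452 genes (4.43%) were higher in G3SKM, 112 (1.10%) were lower, and the other 9650 stayed under it. Pseudogenes were the most numerous class called, with 194 of 1752 higher and 34 lower. Small nucleolar RNAs (snoRNAs) had 86 of 202 higher and 1 lower. Of 6971 protein-coding genes 50 were higher (0.717%) and 36 lower (0.516%). Their median log2 ratio was -0.06, against 0.00 for all genes compared.

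The ratio followed the GC content of the transcripts, which has to be read beside every value that follows. The log2 ratio and transcript GC had a Spearman's rho of -0.715 across genes, which are not independent. For G3SKM over empty vector rho was -0.00249 and for G3SKM over OSKM -0.0558, so the trend went with the SKM library. Over 20 equal bins of GC, the median log2 ratio went from 0.59 in the lowest bin (median GC 38.7%) to -0.54 in the highest (62.1%). The 50 protein-coding genes called higher had a median GC of 42.9%, and the 36 called lower 59.9%. Each main value is therefore also given after the median of the bin was subtracted. A GC value was found for 9460 genes, and of these 374 (3.95%) were higher and 97 (1.03%) lower as deposited, 201 (2.12%) and 55 (0.581%) once the trend was removed, and 178 (1.88%) and 34 (0.359%) both ways. Among protein-coding genes, 21 were higher (0.301%) and 21 lower (0.301%) with the trend removed, and 13 (0.186%) and 10 (0.143%) both ways.

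**Figure D1:**
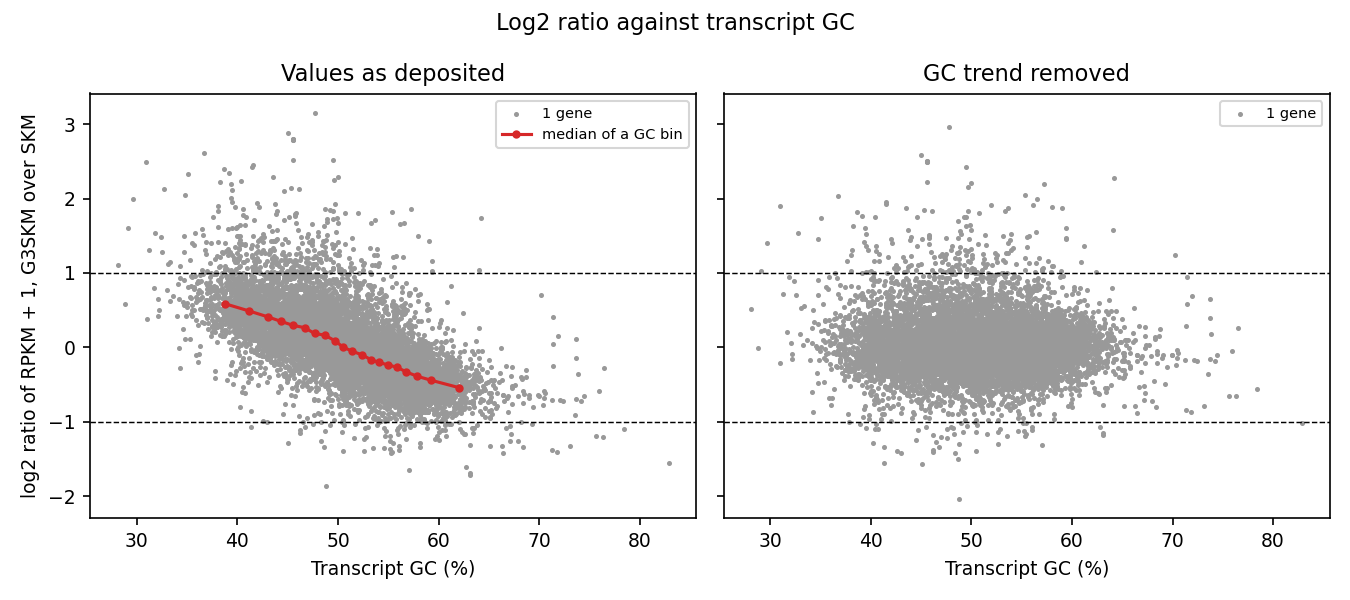
Log2 ratio of RPKM + 1 of G3SKM over SKM (vertical axis) against the GC content of the transcript in percent (horizontal axis), as deposited (left) and with the GC trend removed (right). Each grey point is 1 of 9460 genes, red points are the medians of 20 bins, and dashed lines mark the rule of size at 1 and -1; the bin medians run from 0.59 down to -0.54 on the left.

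The place of the other groups beside each call is given as a description, since the call itself put SKM and G3SKM apart. Of the 452 genes called higher, SKM had the lowest of the 4 values in 360 (79.6%) and G3SKM the highest in 361 (79.9%). Of the 112 called lower, SKM had the highest value in 96 (85.7%) and G3SKM the lowest in 59 (52.7%). Over empty vector, by the same rule, 732 of 10297 genes were higher in G3SKM (7.11%) and 385 lower (3.74%), and over OSKM 230 of 10222 were higher (2.25%) and 74 lower (0.724%). After 1 RPKM was added, G3SKM was at least 2-fold above each of the other 3 groups in 88 genes and at least 2-fold below each of them in 0 of the 10214. Of these 88 genes, 47 were snoRNAs, 9 small nuclear RNAs, 4 miscellaneous small RNAs, 3 ribozyme RNAs, 3 microRNA loci and 3 protein-coding genes, and 16 had no match in the annotation. The protein-coding genes were Gnb1l, Calm4 and Cox20.

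The delivered factors come first, since they bear on the labels. Gata3 was at 0.571 RPKM in G3SKM, against 0.0444 in SKM, 0.0836 in OSKM and 0.0639 with the empty vector, and so highest in the group labelled with it. It was 12.9-fold higher than in SKM (10.3 to 16.3), on 1911 reads against 79. The gene is long and lay under the filter, because the authors' RPKM divide by the whole gene span with its introns. Rescaled to exon length it went from 0.367 to 4.73, a log2 ratio of 2.07, or 1.96 with the GC trend removed. The predicted gene Gm13256, which lies inside the span of Gata3, held reads equal to 36.7% of those of Gata3 in SKM and 14.6% in G3SKM.

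The factors that both groups received were all lower, beyond counting error, where GATA3 was added. Sox2 stood at 70.7 RPKM in G3SKM, 187 in SKM, 110.5 in OSKM and 0.260 with the empty vector. It was 2.64-fold lower in G3SKM than in SKM (2.59 to 2.70), with a log2 ratio of -1.39 both as deposited and with the GC trend removed. Klf4 was at 8.55 RPKM in G3SKM, 19.3 in SKM, 13.9 in OSKM and 6.26 with the empty vector. That is 2.26-fold lower (2.17 to 2.35) and past the rule as deposited, at -1.09, but not with the trend removed, at -0.85. Myc was at 6.31 RPKM in G3SKM, 11.9 in SKM, 10.5 in OSKM and 16.0 with the empty vector, which is 1.89-fold lower than in SKM (1.80 to 1.99) and under the rule. Pou5f1, the gene of OCT4, which neither group received, was at 0.212 RPKM in G3SKM, 0.297 in SKM, 3.69 in OSKM and 0 with the empty vector. Values per gene join delivered and endogenous transcripts, and the number of virus copies per cell was not measured, so every difference in this comparison was made between cultures that also differed in Sox2 and Klf4. Whether those levels had a part in the results was not tested.

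**Figure D2:**
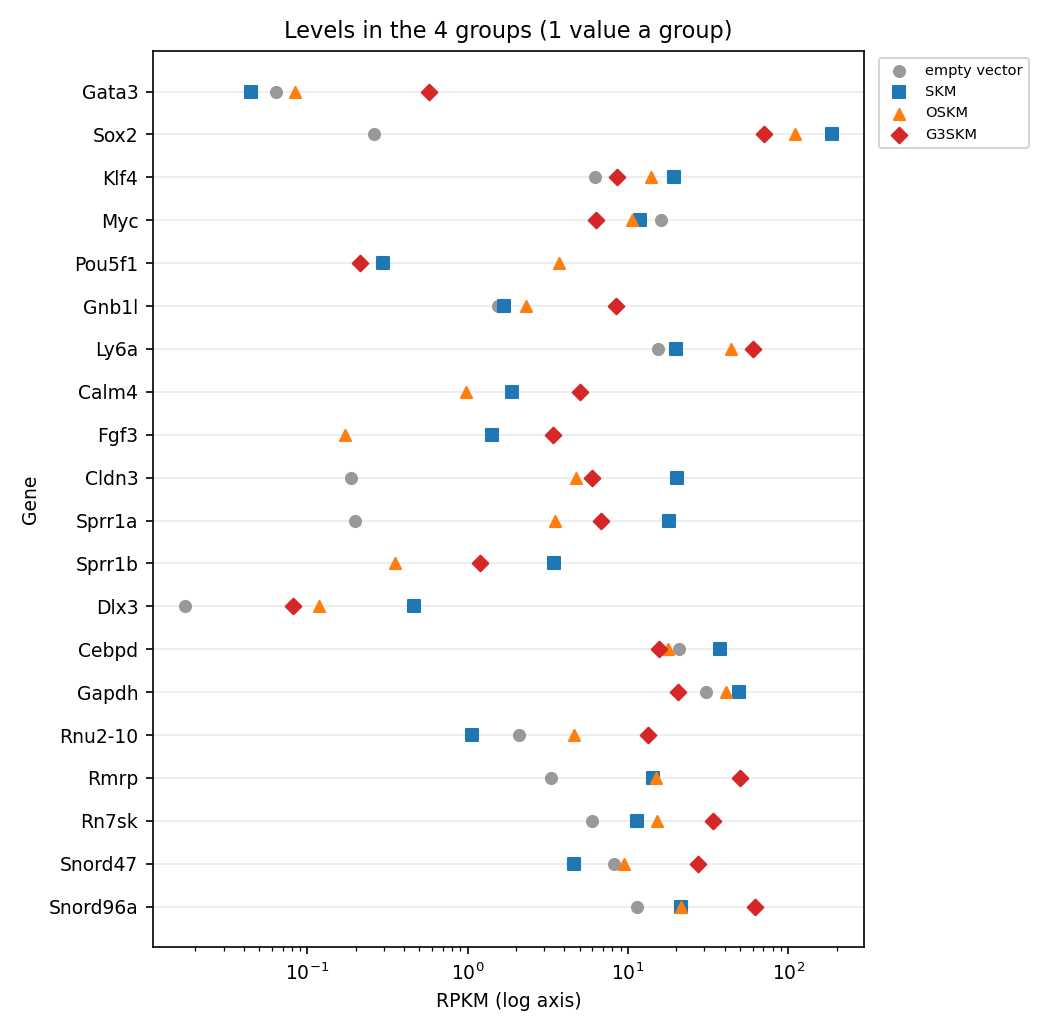
RPKM on a log axis (horizontal) of 20 genes (vertical) in the 4 groups, 1 value a group with no error bar; a value of 0 is not drawn. Gata3 is highest in G3SKM, Sox2 and Klf4 are highest in SKM, and the small RNAs at the bottom are highest in G3SKM.

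The snoRNAs are short nuclear RNAs that guide the chemical modification of ribosomal and spliceosomal RNA. Most are cut out of introns of other genes. C/D box snoRNAs direct methylation of the ribose, and H/ACA box snoRNAs the change of uridine to pseudouridine. The 86 snoRNAs called higher were 42.6% of the 202 compared, against 4.43% of all genes, and the median log2 ratio of the class was 0.83. With the GC trend removed 57 were higher, 2 lower, and the median was 0.65. The median was 1.27 over empty vector and 1.09 over OSKM, libraries that show no GC trend against G3SKM. In 170 of the 202 the highest of the 4 values was that of G3SKM, against 2642 of all 10214 genes compared (25.9%). Of the 86 called higher, G3SKM had the highest value in 85 and SKM the lowest in 48.

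Among snoRNAs with a C/D box name 32 of 58 were higher and 0 lower, with a median of 1.12 (24 and 0, with a median of 0.85, once the GC trend was removed). G3SKM had the highest value in 54 of them. Of those with an H/ACA box name 7 of 30 were higher and 0 lower, with a median of 0.65, and of 4 Cajal body RNAs 1 was higher. The sequences of 4 C/D box members that were higher follow, since their boxes are what sets this class apart. Capitals mark the C box TGATGA near the start and the D box CTGA near the end, and the sequences are the transcripts of GENCODE M21.
Snord47: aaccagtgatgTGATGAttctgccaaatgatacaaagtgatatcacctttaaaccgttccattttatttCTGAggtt
Snord60: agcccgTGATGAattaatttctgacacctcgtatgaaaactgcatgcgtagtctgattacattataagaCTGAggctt
Snord73a: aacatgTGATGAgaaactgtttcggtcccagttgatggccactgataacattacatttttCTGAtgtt
Snord80: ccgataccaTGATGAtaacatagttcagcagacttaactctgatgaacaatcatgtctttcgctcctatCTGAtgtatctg

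Snord47 was at 27.3 RPKM in G3SKM, 4.62 in SKM, 9.51 in OSKM and 8.17 with the empty vector. Snord60 was at 9.85, 1.92, 4.52 and 1.99 RPKM in the same order, and Snord80 at 21.8, 4.87, 10.7 and 6.63. All of them were highest in G3SKM and lowest in SKM. They were 5.91-fold (3.69 to 10.0), 5.12-fold (2.47 to 12.3) and 4.47-fold (2.85 to 7.43) higher than in SKM. Snord73a had no read in SKM and 25 in G3SKM, which makes it at least 4.44-fold higher when SKM is set to the floor of 3 reads. The more abundant Snord96a was at 62.2 RPKM in G3SKM, 21.5 in SKM, 21.4 in OSKM and 11.4 with the empty vector, 2.89-fold higher than in SKM (2.31 to 3.65). Here the other 2 reprogramming groups had about the same value and G3SKM alone stood apart. Among H/ACA box members Snora70 was at 14.6 RPKM in G3SKM, 4.49 in SKM, 6.20 in OSKM and 4.43 with the empty vector (3.26-fold over SKM, 2.25 to 4.86). The read counts behind single snoRNAs are small, from 0 to 93 in SKM for the snoRNAs named here.

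The genes whose span holds the snoRNAs had smaller ratios on the whole. As host was taken the shortest listed protein-coding or long non-coding gene around the snoRNA, on either strand. Whether the snoRNA lay in an intron of that gene, and on its strand, was not checked. Of the 202 snoRNAs, 168 lay inside 90 host genes that were compared as well. The median log2 ratio of these snoRNAs was 0.79 and that of the hosts 0.26, or 0.64 and 0.07 with the GC trend removed. By the rule 71 of these snoRNAs were higher, and 2 of the hosts, Eif4a2 (1.32) and Rpl5 (1.11), with 0 hosts lower. With the GC trend removed Eif4a2 was at 0.83 and Rpl5 at 0.69, both under the rule. The hosts Taf1d (0.9973), Zfas1 (0.79) and Gas5 (0.77) also had ratios well above 0, which were 0.51, 0.60 and 0.36 with the trend removed. The snoRNA had a larger ratio than its host in 130 of 168 pairs. Snords share hosts, so these pairs are not independent. The host values count reads over the whole span and so include reads of the snoRNAs themselves.

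**Figure D3:**
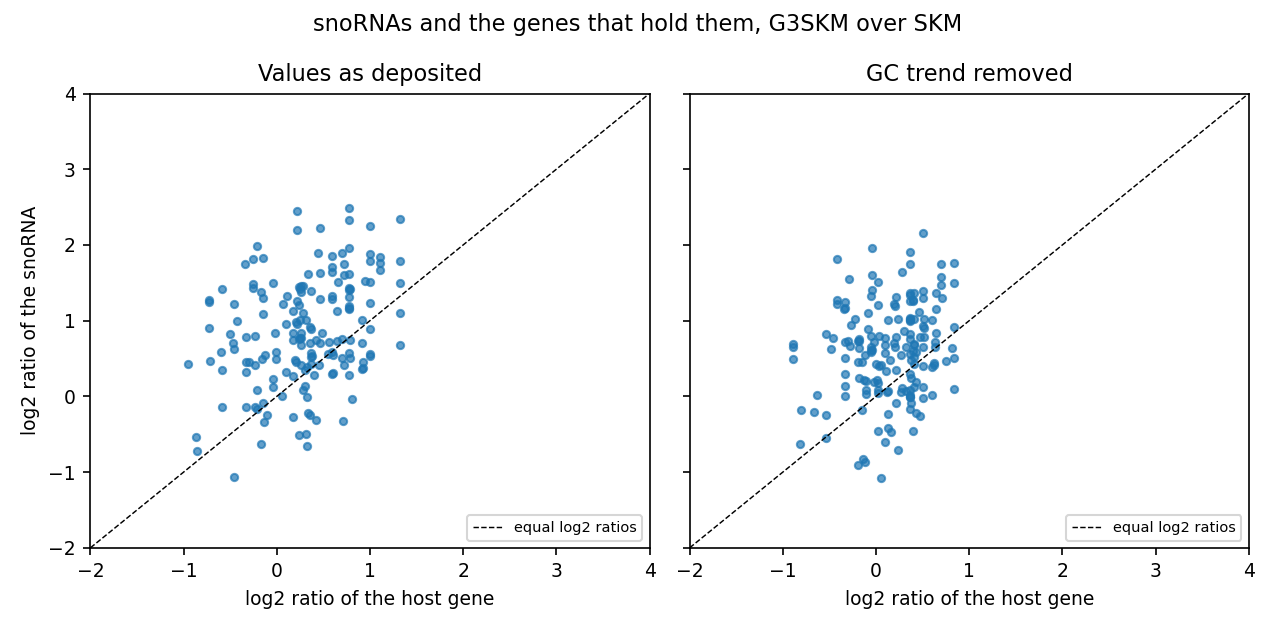
Log2 ratio of RPKM + 1 of G3SKM over SKM of each snoRNA (vertical axis) against that of the gene that holds it (horizontal axis), as deposited (left) and with the GC trend removed (right); each point is 1 of 168 pairs. Points above the dashed line, 130 of 168 on the left, are snoRNAs with a larger ratio than their host.

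Several other types of short RNA that are made as genes of their own shared the direction as deposited. Of 23 small nuclear RNAs, the RNA parts of the spliceosome among them, 14 were higher and 1 lower, with a median of 1.07 (8 and 2, with a median of 0.78, once the GC trend was removed). U2 RNA pairs with the branch point of introns. All 7 small nuclear RNAs with the span of Rnu2-10, taken as U2 copies by that length alone, were higher, with a median of 2.78. With the GC trend removed 6 of the 7 were, and 0 were lower. These copies thus made up 6 of the 8 small nuclear RNAs then called higher, while the 2 called lower were other RNAs. Without the U2 copies the class showed no clear direction once the trend was removed. Reads may have been split among such copies, so they are not independent observations. The copy named Rnu2-10 was at 13.3 RPKM in G3SKM, 1.07 in SKM, 4.58 in OSKM and 2.08 with the empty vector, 12.4-fold higher than in SKM (6.81 to 25.1) on 256 reads against 11. Its transcript in GENCODE M21 is printed as an example of the type with the largest median.
Rnu2-10: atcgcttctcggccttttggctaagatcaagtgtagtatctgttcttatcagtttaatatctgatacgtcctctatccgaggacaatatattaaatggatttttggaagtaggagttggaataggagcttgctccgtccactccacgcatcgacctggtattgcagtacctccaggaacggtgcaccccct

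Rmrp, the RNA of RNase MRP, which cuts precursor ribosomal RNA, was at 50.1 RPKM in G3SKM, 14.3 in SKM, 14.9 in OSKM and 3.30 with the empty vector. It was 3.50-fold higher than in SKM (3.02 to 4.07), and its log2 ratio grew from 1.74 to 2.28 with the GC trend removed, since the transcript is rich in GC. Rprl3, one of the RNase P RNAs, which trim the 5' ends of transfer RNAs, was at 16.6, 3.84, 3.29 and 0.529 RPKM in G3SKM, SKM, OSKM and empty vector (4.33-fold over SKM, 3.31 to 5.76), and Rprl2 was 5.06-fold higher (3.11 to 8.74). For these RNAs G3SKM stood above all other groups, and empty vector below. Rn7sk, which holds back the elongation factor P-TEFb, was at 33.75 RPKM in G3SKM, 11.3 in SKM, 15.2 in OSKM and 5.97 with the empty vector, 2.98-fold higher than in SKM (2.56 to 3.48). Altogether 3 of 4 ribozyme RNAs and 6 of 9 miscellaneous small RNAs were higher and 0 lower. Many of these RNAs are shorter than the cDNA fragments that the labels describe (the median span of the snoRNAs compared was 92.0 bases), and part of them carry no poly(A) tail. How they entered the libraries was not recorded in the sources used here, and whether library preparation had a part in their rise was not tested.

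**Figure D4:**
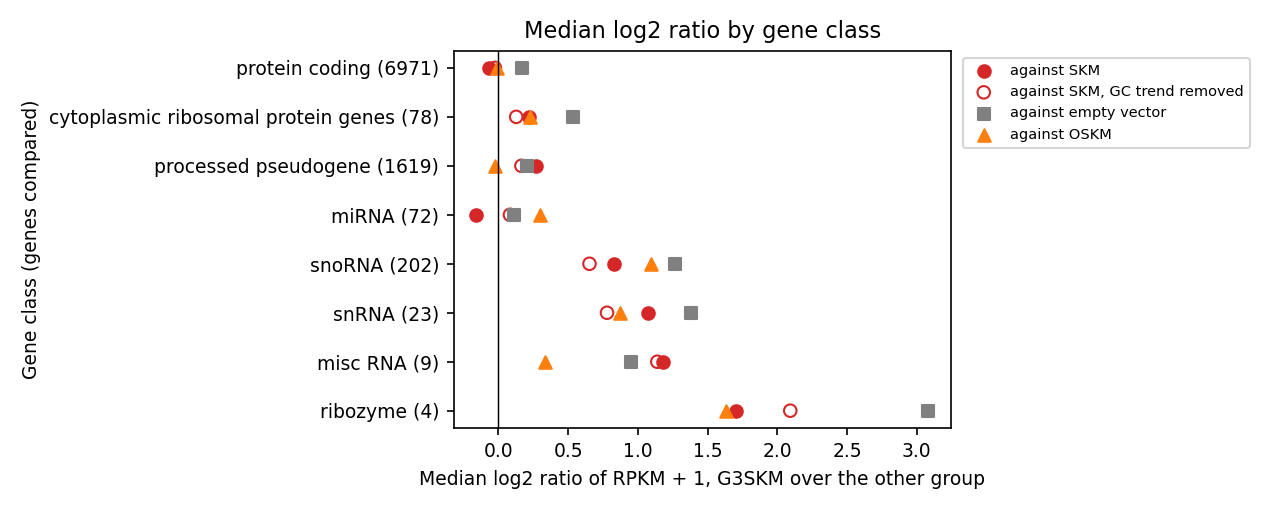
Median log2 ratio of RPKM + 1 of G3SKM over another group (horizontal axis) for gene classes with the number of genes compared in brackets (vertical axis). Filled red circles are against SKM, open circles the same with the GC trend removed, grey squares against empty vector and orange triangles against OSKM; snoRNAs lie at 0.83, 0.65, 1.27 and 1.09 in that order.

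The protein-coding genes described next reached 5 RPKM in one of the groups and passed the rule both ways, unless stated. Rpl22l1 had the largest log2 ratio as deposited, 2.28, and Gnb1l, which encodes a WD repeat protein, with the GC trend removed (2.05, and 1.81 as deposited). Gnb1l was at 8.40 RPKM in G3SKM, 1.67 in SKM, 2.31 in OSKM and 1.54 with the empty vector, 5.02-fold higher than in SKM (4.89 to 5.15), so that G3SKM stood alone. Ly6a, the gene of the surface antigen Sca-1, was at 60.35 RPKM in G3SKM, 19.9 in SKM, 43.8 in OSKM and 15.3 with the empty vector, 3.03-fold higher than in SKM (2.92 to 3.15). Here G3SKM and OSKM were both above SKM and empty vector. Its relatives Ly6c1 and Ly6i were 1.91-fold (1.76 to 2.08) and 2.64-fold (2.22 to 3.16) higher, at log2 ratios of 0.75 and 0.77, under the rule. Ly6e was at 16.8 RPKM in G3SKM and 23.2 in SKM. Reads shared between Ly6 genes were not examined.

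Calm4, a calmodulin-like protein of the differentiating epidermis, was at 5.02 RPKM in G3SKM, 1.90 in SKM, 0.981 in OSKM and 0 with the empty vector, 2.64-fold higher than in SKM (2.11 to 3.34). Fgf3, a secreted fibroblast growth factor of the early embryo, was at 3.39 RPKM in G3SKM, 1.41 in SKM, 0.173 in OSKM and 0 with the empty vector. That is 2.41-fold higher than in SKM (2.18 to 2.66), with a log2 ratio of 0.87, and of 1.20 with the GC trend removed. Both genes had no reads with the empty vector and were lowest, among the groups with factors, in OSKM. Cox20, an assembly factor of cytochrome c oxidase, was at 10.6 RPKM in G3SKM and between 3.98 and 4.70 in the other groups, 2.37-fold higher than in SKM (2.20 to 2.56). Its log2 ratio of 1.08 dropped to 0.59 with the GC trend removed.

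Most of the other protein-coding rises lay where SKM was the lowest group. Rpl22l1, a paralog of a ribosomal protein, was at 50.5 RPKM in G3SKM, 9.57 in SKM, 26.8 in OSKM and 30.8 with the empty vector (5.27-fold over SKM, 4.95 to 5.63). Rps27a, which encodes a fusion of ubiquitin and a ribosomal protein, was at 258, 73.7, 129.0 and 169 RPKM in the same order. Tmsb4x, the gene of the actin-binding thymosin beta 4, was at 283, 103, 240.4 and 613. The empty vector value lay above SKM in each of these, and for Tmsb4x above G3SKM too. Prdx1, a peroxidase of redox defence, stood at 21.7 RPKM in G3SKM, 18.0 in OSKM and 17.6 with the empty vector against 7.19 in SKM, and Fam166a at 7.87, 7.98 and 8.05 against 2.52. For these last genes the call rests on SKM, since the other 3 groups lay close together. Rpl39, Atp5mpl and Lars2, a mitochondrial leucyl-tRNA synthetase, also passed the rule both ways, at 3.71-fold (3.60 to 3.82), 2.69-fold (2.57 to 2.81) and 2.72-fold (2.66 to 2.78). The last of these genes, Ropn1l, holds the processed pseudogene Gm6361, whose reads were 62.6% of those of Ropn1l in SKM and 56.2% in G3SKM.

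On the scale of exon length, on which long genes pass the filter more readily, 235 of 11879 protein-coding genes were higher (1.98%) and 68 lower (0.572%), or 60 (0.505%) and 49 (0.412%) with the GC trend removed. Over all classes this scale gave 603 of 14826 genes higher (4.07%) and 153 lower (1.03%), or 256 (1.73%) and 105 (0.708%). Pou2f3, a POU factor of epidermis and tuft cells, was at 0.661 RPKM in G3SKM, 0.182 in SKM, 0.543 in OSKM and 0.564 with the empty vector on the deposited scale, 3.63-fold higher than in SKM (3.38 to 3.91). SKM was again the group that stood apart. Slc35d2, a sugar nucleotide transporter, was at 1.02 RPKM in G3SKM and between 0.216 and 0.459 in the other groups, 3.96-fold higher than in SKM (3.59 to 4.37). Both were named after their values were seen, from the genes that passed the rule on exon length.

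Protein-coding falls past the rule both ways were led by Cldn3 and Rpl28 as deposited (-1.61 and -1.40) and by Oscp1 and Sox2 with the GC trend removed (-1.42 and -1.39). Oscp1 and Zranb3, another of these falls, hold a pseudogene of Rpl28 whose reads made up 79.2% and 98.0% of theirs in SKM, and 78.1% and 93.9% in G3SKM. Rpl28-ps3 and Rpl28-ps1 themselves were 2.57-fold (2.53 to 2.62) and 2.51-fold (2.49 to 2.54) lower. Rpl28 itself, a protein of the large ribosomal subunit, was at 149 RPKM in G3SKM, 395 in SKM, 279 in OSKM and 162 with the empty vector, 2.64-fold lower than in SKM (2.60 to 2.68). Ctla4, an immune checkpoint receptor, was listed at 8.68 RPKM in G3SKM and 18.1 in SKM, but 100% of these reads lay in Rpl18-ps1, a pseudogene inside it.

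Cebpd, a leucine zipper factor of inflammation and adipocyte differentiation, was at 15.6 RPKM in G3SKM, 37.5 in SKM, 17.8 in OSKM and 20.8 with the empty vector, 2.40-fold lower than in SKM (2.32 to 2.48). Gapdh, a glycolytic enzyme often used as a reference gene, was at 20.5 RPKM in G3SKM, 49.5 in SKM, 41.1 in OSKM and 30.7 with the empty vector, 2.41-fold lower (2.35 to 2.48). Cebpd was high in SKM alone, whereas Gapdh was lowest in G3SKM. Processed pseudogenes share sequence with Gapdh, so its counts are uncertain. Cldn3, a protein of tight junctions, was at 5.98 RPKM in G3SKM, 20.3 in SKM, 4.72 in OSKM and 0.186 with the empty vector, 3.39-fold lower than in SKM (3.10 to 3.71). It stood above the empty vector in every group with factors, and highest in SKM.

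Most pseudogenes compared are processed ones, that is, reverse-transcribed copies of expressed genes. Of 1752 compared, 194 were higher and 34 lower, with a median log2 ratio of 0.26, or 91 and 16 with a median of 0.16 once the GC trend was removed. Reads can fall on a copy or on its source, so their values are uncertain. A protein-coding match was found for 1691 by sequence, and for 1549 the match had itself been compared. Across these pairs Spearman's rho of the log2 ratios was 0.662, and 0.439 with the trend removed, over pairs that share reads and base composition. Ribosomal protein genes were the match of 84 of the 186 risen pseudogenes that had one, and of 465 of all 1691. Copies of Rpl21 were higher in 15 of 28 cases, of Rpl17 in 8 of 17, of Rps27a in 7 of 8 and of Rpl39 in 5 of 5, but of Rpl29 in 1 of 27, of Rpl7a in 1 of 21 and of Rps6 in 1 of 11. Of 4 copies of Rpl28 3 were lower. The match passed the rule in the same direction for 30 of 174 risen and 5 of 27 fallen pseudogenes. Rpl23a-ps1 had the largest fall of the non-coding genes named, from 19.4 RPKM in SKM to 4.60 in G3SKM, with 5.64 in OSKM and 4.37 with the empty vector (4.21-fold, 3.58 to 4.96). The ribosomal protein genes themselves had a median of 0.22 over 78 members, or 0.13 with the trend removed. By the rule 5 of the 78 were higher and 1 lower.

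The gene lists describe programmes of the fibroblast, the epidermis and the early embryo. Of 733 list genes, 413 were compared, and 2 were higher and 14 lower, or 0 and 6 with the GC trend removed. These shares lie beside 4.43% higher and 1.10% lower among all genes, and 0.717% and 0.516% among protein-coding genes. Of the 24 lists with at least 5 genes compared, 20 had a median below 0, and 20 also with the trend removed. The median of all protein-coding genes was itself below 0, at -0.06, and at -0.03 with the trend removed. The share of all protein-coding genes below 0 was not counted, so counts below 0 in single lists stand without that background. The medians ran from -0.51 to 0.45, and from -0.31 to 0.23 with the trend removed.

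**Figure D5:**
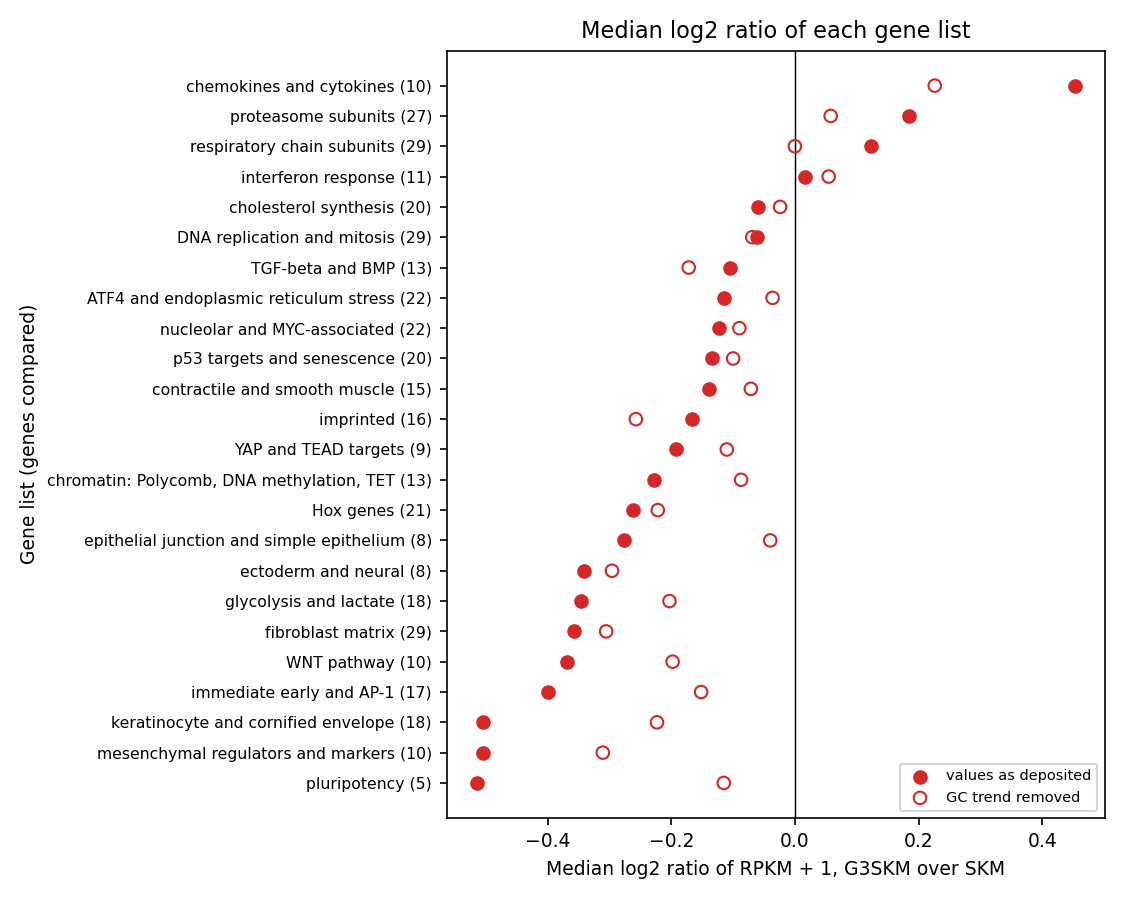
Median log2 ratio of RPKM + 1 of G3SKM over SKM (horizontal axis) for the 24 lists with at least 5 genes compared (vertical axis, number of genes in brackets); filled circles are the values as deposited and open circles those with the GC trend removed. Chemokines and cytokines lie farthest to the right in both, at 0.45 and 0.23.

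Keratinocyte genes build the layered epidermis and its cornified envelope. In bulk samples fewer cells of a type and less RNA per cell cannot be told apart. Of 18 compared (28 on the list), 0 were higher and 3 lower, Sprr1a, Sprr1b and Krt17, and 17 had a ratio below 0, with a median of -0.50. With the GC trend removed, 2 were lower, Sprr1a and Sprr2a1, 12 of 18 lay below 0, 6 above it, and the median was -0.22. Sprr1a, a small proline-rich protein that is crosslinked into the envelope, was at 6.78 RPKM in G3SKM, 17.9 in SKM, 3.50 in OSKM and 0.200 with the empty vector, 2.64-fold lower than in SKM (2.46 to 2.84). Its neighbour in kind Sprr1b was at 1.19, 3.44, 0.353 and 0 RPKM in the same order (2.90-fold lower than SKM, 2.46 to 3.43), and Sprr2a1 was 2.28-fold lower (2.00 to 2.60). In all of them SKM was highest, and G3SKM lay between SKM and OSKM. Krt14, a keratin of the basal layer, was at 22.8 RPKM in G3SKM, 33.8 in SKM, 16.5 in OSKM and 0.0656 with the empty vector, and Krt17, a keratin of stressed and appendage epithelium, at 4.89, 10.8, 5.32 and 0.0112. The basal markers Krt5 and Trp63 were near or at 0 in both groups, with Krt5 at 0.0998 RPKM in G3SKM and 0.118 in SKM and Trp63 listed at 0 in each. Asprv1 and Crct1, genes of the upper epidermis, were at 10.3 and 7.99 RPKM in G3SKM against 11.6 and 8.54 in SKM, so the fall was not shared by every member.

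The stretches upstream of Sprr1a and Sprr1b, both lower as deposited (Sprr1b at -0.97 with the GC trend removed), are printed with their matches to motifs of AP-1, the FOS and JUN dimer (TGANTCA), and of GATA factors (AGATAA or TGATAA), both searched on both strands. They are the 250 bases before the start of the RefSeq gene on GRCm38.p6, both on the minus strand, at chr3:92485882-92486131 for Sprr1a and chr3:92438780-92439029 for Sprr1b. Capitals mark matches.
Sprr1a: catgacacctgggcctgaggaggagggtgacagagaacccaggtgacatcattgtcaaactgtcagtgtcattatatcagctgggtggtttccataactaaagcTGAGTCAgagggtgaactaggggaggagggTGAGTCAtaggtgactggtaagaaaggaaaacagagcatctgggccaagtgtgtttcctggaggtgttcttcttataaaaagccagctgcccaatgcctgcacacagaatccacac
Sprr1b: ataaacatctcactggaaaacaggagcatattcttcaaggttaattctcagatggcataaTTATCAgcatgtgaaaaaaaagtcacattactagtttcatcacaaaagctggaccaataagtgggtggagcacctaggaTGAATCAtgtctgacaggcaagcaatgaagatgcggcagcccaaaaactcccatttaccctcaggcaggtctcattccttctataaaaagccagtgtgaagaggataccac
Sprr1a held 2 AP-1 matches and 0 GATA matches, and Sprr1b 1 of each. The same stretch of Cldn3, which had the largest protein-coding fall as deposited among genes past the rule both ways, held 0 of either. Among 32851 promoters of that length 6.75% held an AP-1 match and 16.6% a GATA match. A match is a run of letters and no evidence of binding.

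Of the epithelial junction genes 8 of 26 were compared, and 1 of them, Cldn3, was lower, with a median of -0.28 that shrank to -0.04 with the GC trend removed. Krt8, a keratin of simple epithelium, was at 7.91 RPKM in G3SKM, 11.1 in SKM, 6.18 in OSKM and 0.0908 with the empty vector (1.40-fold lower than SKM, 1.34 to 1.45). Epcam, an adhesion molecule of epithelia and stem cells, was under the filter, at 0.215 RPKM against 0.159.

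Immediate early genes respond within minutes to growth signals, and AP-1 is built from their products. Of 17 compared, 0 were higher and 4 lower, Cebpb, Cebpd, Junb and Jund, with a median of -0.40. With the GC trend removed, 1 of them, Cebpd, stayed past the rule and the median was -0.15. Cebpb, a relative of Cebpd, was at 19.4 RPKM in G3SKM, 47.7 in SKM, 13.5 in OSKM and 49.1 with the empty vector (2.45-fold lower than SKM, 2.34 to 2.57). Junb, an AP-1 subunit, was at 19.2, 44.0, 20.3 and 91.4 RPKM in the same order. Both were about as low in OSKM as in G3SKM, and as high or higher with the empty vector as in SKM. Genes annotated inside Jund held reads equal to 128% of its own in SKM and 101% in G3SKM, and the library kit does not mark strand, so the value of Jund is uncertain.

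The regulators of lineages, the group to which GATA3 belongs, lay mostly under the filter, where folds rest on few reads. Among genes with at least 20 reads in the 2 groups together, whatever their RPKM, the plain ratio was 2-fold or more higher for 11.0% of 19181 and lower for 3.26%, or 6.01% and 2.86% with the GC trend removed. No gene of the GATA family or its cofactors passed the filter. Gata2 was at 0.427 RPKM in G3SKM and 0.655 in SKM, Gata6 at 0.143 and 0.213 and Gata4 at 0.00866 and 0.00737. None of these was higher beyond its counting interval, with Gata2 and Gata6 1.53-fold (1.35 to 1.74) and 1.49-fold (1.3 to 1.70) lower. Gata5 was 6.76-fold lower (2.42 to 23.3), on 5 reads against 18. These folds still carry the GC trend, which the counting intervals do not cover. On exon length 5 genes of this list, GATA3 included among its members, had a median log2 ratio of -0.27, and of -0.0032 with the trend removed. Of the 8 with at least 20 reads, 1 was 2-fold or more higher by the plain ratio with the trend removed and 1 lower, with a median of -0.21.

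The ectodermal factors Dlx3 and Lhx5 were lower in G3SKM, at levels under the filter. Dlx3, a homeobox factor of epidermis and placenta, was at 0.0813 RPKM in G3SKM, 0.466 in SKM, 0.118 in OSKM and 0.0173 with the empty vector. It was 5.72-fold lower than in SKM (4.0 to 8.22), on 43 reads against 130. Lhx5, a LIM homeobox factor of the forebrain, was at 0.00206, 0.0387, 0.0182 and 0.00188 RPKM in the same order, with 2 reads in G3SKM against 20 in SKM (18.8-fold lower, 4.56 to 166). For both, SKM held the highest of the 4 values, and G3SKM lay below OSKM. With the GC trend removed the plain log2 ratios were -2.19 for Dlx3 and -3.71 for Lhx5.

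Of the 8 ectodermal and neural genes compared, 1 was lower and all 8 had a ratio below 0, with a median of -0.34, and of -0.30 with 7 below 0 once the GC trend was removed. The one past the rule as deposited was Sox3, a close relative of Sox2, at -1.42, which was short of it with the trend removed, at -0.87. It was at 4.34 RPKM in G3SKM, 13.2 in SKM, 8.14 in OSKM and 0 with the empty vector, the same order of groups as delivered Sox2. Whether reads of Sox2 were also counted at Sox3 was not tested. Sox11, a neural SOX factor, was at 3.91 RPKM in G3SKM, 8.80 in SKM, 9.78 in OSKM and 6.19 with the empty vector, lowest in G3SKM. Its log2 ratio was -0.998, just short of the rule, and -1.26 with the trend removed, when it was the one of the 8 called lower.

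GATA3 is itself known as a regulator of trophoblast genes. Of 19 on the list 4 were compared, 0 were higher or lower, and all 4 had a ratio below 0 with a median of -0.40 (3 of 4 and -0.31 with the GC trend removed). Hand1, a factor of trophoblast giant cells and the heart, was at 3.17 RPKM in G3SKM, 5.37 in SKM, 4.25 in OSKM and 0.0131 with the empty vector. Esx1, a placental homeobox gene, was at 1.61, 2.87, 2.99 and 0 RPKM in the same order, and Elf5 was 2.42-fold lower (1.55 to 3.80). All of these were lower than in SKM beyond counting error, as plain values that still carry the GC trend. Of the 15 list genes with at least 20 reads, 1 was 2-fold or more higher by the plain ratio with the trend removed and 2 lower. Their median was -0.04, and the shares over all such genes were 6.01% and 2.86%. Tfap2c and Tfap2a, which act with GATA3 in trophectoderm, were at 0.0523 and 0.0640 RPKM in G3SKM against 0.0492 and 0.0571 in SKM, with intervals of the ratio that include 1 (0.639 to 1.82 and 0.842 to 1.51). Eomes, a T-box factor of trophoblast and mesendoderm, went the other way, with 32 reads in G3SKM against 2 in SKM, which is 8.52-fold higher (2.17 to 73.3). Its level of 0.0398 RPKM was below the 0.0507 of OSKM.

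Mesendoderm genes were also nearly all under the filter, with 2 of 21 compared, 0 past the rule and a median of -0.48 over these 2, or -0.09 with the GC trend removed. Of the 14 list genes with at least 20 reads, 2 were 2-fold or more higher by the plain ratio with the trend removed, and 2 lower. Their median plain log2 ratio was -0.10, and over all such genes the shares were 6.01% and 2.86%. Sox7, a factor of primitive endoderm and vessels, was 2.99-fold higher (1.40 to 7.35), on 45 reads against 8. Foxa2, a pioneer factor of endoderm, had 15 reads against 2, too few for the set of 14, with an interval that includes 1 (0.928 to 36.0). Sox7 and Foxa2 are examples with more reads in G3SKM, and the 2 lower genes are not named here, so they do not stand for the list.

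Pluripotency genes too lay mostly under the filter. Of 33 on the list 5 were compared, with 0 past the rule, all 5 below 0 and a median of -0.51, or -0.12 once the GC trend was removed. Nanog, a core factor of the pluripotent state, was at 0.131 RPKM in G3SKM, 0.0906 in SKM, 0.137 in OSKM and 0.0340 with the empty vector. Its ratio of 1.44 over SKM had an interval that includes 1 (0.971 to 2.19). Fgf4, a target of OCT4 and SOX2, was at 0.0409 RPKM in G3SKM and 0.0192 in SKM, against 1.15 in OSKM. Nr0b1 was at 0.00471 RPKM in G3SKM against 1.10 in OSKM, and L1td1 at 0.186 against 2.17. Fgf4, Nr0b1 and L1td1 were thus far higher where OCT4 was given than where GATA3 was. They were picked with their values known and do not stand for the list. Nanog was about level between G3SKM and OSKM, and the 5 list genes compared had a median log2 ratio of -0.07 for G3SKM over OSKM. Zfp42, a marker of naive cells, had 15 reads in G3SKM and 0 in SKM, at least 2.66-fold higher against the floor, with 0.0124 RPKM against 0.0527 in OSKM.

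Matrix genes are the main secreted products of the fibroblast itself. Of 29 matrix genes compared, 27 had a ratio below 0 with a median of -0.36, and 28 with a median of -0.31 once the GC trend was removed. By the rule 2 of them, Col1a1 and Loxl1, were lower as deposited and 0 with the trend removed. Col1a1, the main chain of type I collagen, was at 166 RPKM in G3SKM, 352 in SKM, 143 in OSKM and 332 with the empty vector, 2.12-fold lower than in SKM (2.11 to 2.13). Fn1, fibronectin, was at 12.4, 20.3, 14.7 and 58.1 RPKM in the same order, and Vim, the intermediate filament of mesenchyme, at 127, 175, 160 and 342. For Fn1 and Vim G3SKM was the lowest of the 4 groups, and for Col1a1 it stood beside OSKM. These defining markers of the labelled cell type were thus well expressed, although Pdgfra, a receptor that marks fibroblasts, was under the filter at 0.690 RPKM in G3SKM and 0.832 in SKM. Of 10 mesenchymal regulators and markers compared, 1 was lower, Foxc2, with a median of -0.51 (-0.31 and 0 past the rule with the trend removed). Snai1, a repressor of epithelial genes, was at 8.01 RPKM in G3SKM, 16.6 in SKM, 6.73 in OSKM and 30.3 with the empty vector, and Snai2, its relative, at 2.48, 1.92, 3.42 and 9.36. S100a4, a calcium-binding protein of motile cells, went the other way, at 71.8 RPKM against 49.8 in SKM.

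Among lists with at least 5 genes compared, secreted signals of fibroblasts had the highest median over SKM. Of 10 chemokines and cytokines compared, 0 passed the rule in either direction, 9 had a ratio above 0 and the median was 0.45 (0.23 with the GC trend removed). For G3SKM over empty vector the median was -0.97, so the list lay below the control, and over OSKM it was 0.68. Ccl7 was at 46.3 RPKM in G3SKM, 25.5 in SKM, 15.9 in OSKM and 57.9 with the empty vector. Cxcl5, which attracts neutrophils, was at 27.3, 18.2, 8.13 and 18.7 RPKM in the same order, and Cxcl1, which does the same, at 14.9, 8.87, 3.75 and 17.9. In all of these G3SKM was above SKM and OSKM lowest. Il6, an inflammatory cytokine, was at 1.09 RPKM against 0.383 in SKM, 2.83-fold higher (2.37 to 3.42), and Ptgs2, the inducible cyclooxygenase, at 4.02 against 1.59 (2.52-fold, 2.32 to 2.74). The log2 ratios of Il6 and Cxcl5, which unlike the folds have 1 RPKM added, were 0.00 and 0.07 with the trend removed. The added RPKM lowers the ratio of a gene at levels as low as those of Il6, and so does subtracting a GC bin median above 0, which reached 0.59 in the lowest bin. The folds of Il6 and Ptgs2 still carry the GC trend. Interferon response genes had a median of 0.02 over 11 compared, with 0 past the rule, and stood apart from OSKM instead, with a median of -0.64 over it. Isg15, a ubiquitin-like protein induced by interferon, was at 12.9 RPKM in G3SKM, 13.3 in SKM, 45.0 in OSKM and 19.5 with the empty vector.

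In the lists of growth and metabolism few genes passed the rule. Of 18 glycolytic genes 1 was lower, Gapdh, and 17 had a ratio below 0, with a median of -0.35 (-0.20 with the GC trend removed). Aldoa and Eno1, glycolytic enzymes too, were at 53.6 and 43.2 RPKM in G3SKM, 98.0 and 73.6 in SKM, 76.0 and 61.9 in OSKM, and 68.0 and 45.3 with the empty vector. Their levels were highest in SKM and lowest in G3SKM. Respiratory chain subunits had a median of 0.12 over 29 genes (0.00 with the trend removed) and proteasome subunits of 0.18 over 27 (0.06), with 1 proteasome gene, Psmc6, higher as deposited. In cholesterol synthesis 1 of 20 was higher, Idi1, an isomerase of isoprenoid units, at 15.7 RPKM in G3SKM, 6.32 in SKM, 13.8 in OSKM and 11.2 with the empty vector. Both rises fell under the rule with the trend removed, at 0.43 for Psmc6 and 0.70 for Idi1. None of 22 nucleolar and MYC-associated genes and none of 29 genes of DNA replication and mitosis passed the rule, with medians of -0.12 and -0.06. The WNT list had 1 of 10 lower, the receptor gene Fzd2, at 6.93 RPKM against 15.3 in SKM, and 0 with the trend removed (Fzd2 at -0.71). None of the 13 TGF-beta and BMP genes, 21 Hox genes and 16 imprinted genes compared passed the rule either.

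Among markers of other cells that a skin culture could hold, 0 passed the rule, and those of macrophages, endothelium and red cells were low in both groups. Summed over the 15 genes on the list, of which 4 were compared, macrophage genes were at 5.60 RPKM in G3SKM and 7.40 in SKM, and at 70.7 with the empty vector, with Ptprc at 0 in SKM and Adgre1 at 0 in G3SKM. The endothelial list (0 of 10 compared) came to 1.00 RPKM in G3SKM and 1.18 in SKM, and the erythroid list (1 of 9) to 2.76 and 1.43. The bone and cartilage list stood higher, at 65.9 RPKM in G3SKM and 109 in SKM over 11 genes, 4 of them compared. Of these 4, 3 had a log2 ratio below 0 and 1 above it, with a median of -0.67 (-0.46 with the GC trend removed). All 11 had at least 20 reads, and by the plain ratio with the trend removed 1 was 2-fold or more higher and 3 lower. The shares over all such genes were 6.01% and 2.86%. Among bone genes that were lower, Bglap and Bglap2, which encode osteocalcin, were at 17.7 and 28.5 RPKM in G3SKM against 31.3 and 55.6 in SKM. Ibsp, the bone sialoprotein gene, was at 0.0641 RPKM in G3SKM, 0.629 in SKM, 0.504 in OSKM and 0.481 with the empty vector. It was 9.82-fold lower than in SKM (7.71 to 12.6), and G3SKM alone was low.

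MicroRNA loci went both ways, with 13 of 72 higher (18.1%) and 12 lower (16.7%), or 11 and 4 with the GC trend removed. The shares were 4.43% and 1.10% among all genes, or 2.12% and 0.581% among those with a GC value once the trend was removed. The libraries measured fragments of longer transcripts, so the values of these loci belong to the precursor or its host transcript and not to the mature microRNA. The mature strands of a fallen and a risen locus are printed from RefSeq (GRCm38.p6) because they share the seed, bases 2 to 8, in capitals.
mmu-miR-25-3p: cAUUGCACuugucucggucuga
mmu-miR-92a-3p: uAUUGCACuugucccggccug
Mir25, which lies inside the replication gene Mcm7, was at 2.85 RPKM in G3SKM, 11.6 in SKM, 1.29 in OSKM and 0.650 with the empty vector, 4.07-fold lower than in SKM (2.46 to 6.90) on 24 reads against 52. Mir92-1 was at 5.61, 2.11, 1.35 and 0.569 RPKM in the same order, 2.66-fold higher than in SKM (1.28 to 6.19) on 45 reads against 9. Mir25 stayed past the rule with the GC trend removed, at -1.17, and Mir92-1 did not, at 0.90. Loci of the same seed thus differed in direction, on small counts. Mir675, which is cut from the imprinted transcript H19, was at 201.5 RPKM in G3SKM, 649 in SKM, 377 in OSKM and 548 with the empty vector, 3.22-fold lower than in SKM (3.03 to 3.42). H19 itself was at 90.4 RPKM in G3SKM and 156 in SKM, 1.73-fold lower (1.70 to 1.76).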

How the data were processed

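RNA-seq was analysed from the deposited tables, which hold 1 RPKM value per gene and group. RNA came from a TRIzol extraction with DNase treatment, per the labels' protocols, and amplified cDNA was amplified further by PCR, sonicated and put through a DNA library kit, which does not mark strand. TopHat 1.3.0 and build mm9 are named in the submitters' processing notes. How the 2 replicates of a group were combined, which counter was used and with which annotation is not given in the sources used here. The deposited tables also hold a log2 ratio of the RPKM, per the file headers, and recomputing it from the columns gave differences of no more than 0.0017. The ratio after 1 RPKM was added was computed anew, with 0.001 read as 0. Levels in OSKM and empty vector come from the tables of other comparisons, and SKM is the same column in each.

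GENCODE M21 gave symbols, gene spans, lengths of exons and the GC of transcripts for 91.5% of the genes in the G3SKM table. It belongs to a later build, so coordinates are given for RefSeq promoters alone. Values multiplied by the gene span fell on whole multiples of 1 step (within 0.05) for 74.3% to 76.3% of genes, which gave reads and depth. Reads and intervals are approximate for the others, among them Sox2, Sox3, Dlx3, Gata6, Fgf4, Foxa2, Tfap2a, Ly6c1, Ly6i, Slc35d2, Rpl23a-ps1, Krt8, Il6 and Ptgs2. PCR copies make reads less independent than molecules, which the intervals leave out. Pseudogenes were matched to protein-coding transcripts with blastn 2.17.0 (at least 80% identity over 50% of the length).

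Members, lists and rules were chosen with earlier results of these data known. Named were the delivered factors, the 15 largest protein-coding and 5 largest other changes past the rule with and without the GC trend at 5 RPKM or more, up to 3 genes per list and direction, and 9 lineage genes, of which not all are reported here. Predicted genes are not named as changes of their own. All single snoRNAs apart from those of that rule, Rn7sk, the Ly6 relatives, Cox20, Ibsp, Ctla4, the genes named on exon length and list members short of the rule were named after their values were seen. The functions were tested on simulated data. Python 3.11.15, pandas 2.3.3, numpy 2.4.6, SciPy 1.17.1 and matplotlib 3.10.9 were used.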

Additional observations from a re-analysis of the deposited data

How the results depend on the processing

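No paired analysis was possible because each group has a single value. The 452 higher and 112 lower genes became 838 and 257 with a pseudocount of 0.1 RPKM, 205 and 43 with 5 RPKM, 33 and 2 with a rule of 2, and 50 and 36 among protein-coding genes alone. With the GC trend removed they were 201 and 55, and 256 higher on exon length with the trend removed. At 100 reads or more in the higher group, 290 were higher. The plain ratio of genes with 20 reads and the trend removed, chosen after seeing the data, gave 1153 and 548. Without the SKM library, G3SKM had 732 higher and 385 lower genes over empty vector and 230 and 74 over OSKM. The counts after removal of the trend became 22 and 19 when the trend was fitted and the genes counted among protein-coding genes alone.

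The 2 higher and 14 lower list genes became 11 and 24 with a pseudocount of 0.1 RPKM, 0 and 6 with 5 RPKM, 0 and 6 with the trend removed, 10 higher on exon length, and 1 and 8 on exon length with the trend removed. The 86 higher snoRNAs became 34 with a pseudocount of 5 RPKM, 57 with the trend removed and 135 over empty vector, alternatives chosen after seeing the data. Changes of pseudocount, rule or filter alter which genes can pass; the cause of the other shifts was not tested. No called value of the named genes changed sign under GC removal, exon length or a pseudocount of 0.1 RPKM. Leaving out a replicate was not possible, since replicates were deposited combined. Small RNAs and lineage genes under the filter rest on few reads, and there depth limits what can be seen.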
